A study of Homo sapiens with 2 samples.

Results

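The genes described here encode 10 chaperones and co-chaperones that fold proteins in the lumen of the endoplasmic reticulum (ER). They comprise the HSP70-type chaperones HSPA5 and HYOU1, the HSP90-type chaperone HSP90B1, the lectin chaperones CALR and CANX, the J-domain co-chaperones DNAJB9, DNAJB11, DNAJC3 and DNAJC10, and SDF2L1. They were picked by gene name with earlier results of these same data known, so their difference between the genotypes is a description and not a test. Of the 25277 rows in each gene table, 10 are these genes, each with 1 row, and all 10 were above the limit of 1 FPKM in both samples. FPKM is the number of sequenced fragments corrected for transcript length and library depth, so that levels of different genes can be compared.

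The samples were WT and PERK-KO HEK293 cells, a human embryonic kidney line, at passage 15-20 and with 1 sample per genotype. PERK, encoded by EIF2AK3, is a kinase of the ER membrane, and in the study the knockout was made with CRISPR/Cas9 guides followed by seeding of single cells, so the PERK-KO cells are a clonal line. Both were kept for 12 h in OXPHOS medium, which has galactose and pyruvate in place of glucose and makes the cells depend on mitochondrial respiration, and cultures in glucose medium were not analysed here. With 1 sample per genotype no difference has a replicate error, no p-value is given, and the genotype cannot be told apart from the clone, the culture or the library. The limits printed after each value are the confidence limits of the deposited tables, which describe the error within 1 library and do not cover differences between cultures.

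EIF2AK3 was at 5.61 FPKM (5.11 to 6.12) in WT and at 3.89 (3.44 to 4.34) in PERK-KO cells, with limits apart, and the level of the transcript does not check a small deletion by Cas9. Among markers of HEK293 cells, VIM was at 418 and 378 FPKM and NEFL at 44.9 and 33.4 in WT and PERK-KO cells. IRS4, an insulin receptor substrate typical of this line, was at 0.121 FPKM (0.0404 to 0.202) in WT and 27.1 (25.8 to 28.4) in PERK-KO cells, NEFM was at 0.662 and 5.21, and INA at 0.458 and 4.13. PAX2 was under 1 FPKM in both. The libraries thus differed in 3 of the 6 line markers by more than 5-fold, and IRS4 was near 0 in the WT library although both samples are labelled HEK293. Whether both lines share one origin was not tested, and a difference of origin cannot be told apart from the genotype in any ratio of PERK-KO to WT given here. Of 6 markers of other cells, ALB and UCP1 were listed at 0 in both samples. PTPRC and KRT5 were under 1 FPKM in both. COL1A1, at 4.97 and 4.62 FPKM in WT and PERK-KO cells, and ADIPOQ, at 1.68 and 1.42, were above 1 FPKM in both.

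As background, HSPA5 (also called BiP or GRP78) binds unfolded stretches of new proteins in cycles driven by ATP. J-domain proteins bring clients to it and start ATP hydrolysis, and HYOU1 exchanges its nucleotide. HSP90B1 (GRP94) acts later on a narrower set of clients, whereas CALR and CANX hold glycoproteins through their sugar chains. When unfolded proteins accumulate, the sensors IRE1, ATF6 and PERK start the unfolded protein response, in which ATF6 and XBP1 activate chaperone genes through the ER stress response element (ERSE), made of CCAAT and CCACG with 9 bases between them, or through the shorter ERSE-II, made of ATTGG and CCACG with 1 base between them. PERK itself phosphorylates eIF2alpha and slows translation.

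The promoters are shown because these elements are the sequence the genes are known to share. The genes were picked by name with the difference between PERK-KO and WT known, and the elements are known from ER chaperone genes. Finding them here is therefore a description and not an independent result. Each promoter was taken from RefSeq (GRCh38.p14) as 250 bases before to 50 bases after the transcription start, and all of the members' windows were found once in GRCh37, whose coordinates are given. The next sequences are the 250 bases before the start, written 5′ to 3′ on the strand of the gene, with the fixed letters of each complete ERSE or ERSE-II in capitals. They lie at chr9:128003623-128003872 on the minus strand for HSPA5, at chr11:118927917-118928166 on the minus strand for HYOU1 and at chr12:104323938-104324187 on the plus strand for HSP90B1.
HSPA5: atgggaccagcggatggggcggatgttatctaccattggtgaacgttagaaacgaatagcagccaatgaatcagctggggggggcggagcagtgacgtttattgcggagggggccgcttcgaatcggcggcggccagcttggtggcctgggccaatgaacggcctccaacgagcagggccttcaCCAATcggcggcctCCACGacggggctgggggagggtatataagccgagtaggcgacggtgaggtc
HYOU1: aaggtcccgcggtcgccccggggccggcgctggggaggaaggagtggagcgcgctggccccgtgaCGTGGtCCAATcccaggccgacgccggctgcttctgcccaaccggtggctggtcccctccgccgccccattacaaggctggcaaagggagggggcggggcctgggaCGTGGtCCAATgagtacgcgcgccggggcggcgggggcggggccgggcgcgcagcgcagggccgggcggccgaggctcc
HSP90B1: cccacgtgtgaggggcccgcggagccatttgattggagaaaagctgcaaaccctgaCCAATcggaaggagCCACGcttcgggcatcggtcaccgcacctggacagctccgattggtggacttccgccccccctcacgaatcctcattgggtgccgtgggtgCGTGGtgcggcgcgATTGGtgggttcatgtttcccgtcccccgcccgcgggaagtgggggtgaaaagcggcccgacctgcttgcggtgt

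A complete ERSE on either strand was found in 4 of the 10 genes (HSPA5, HSP90B1, CALR and CANX), and an ERSE-II in HYOU1 and SDF2L1. Counted in the same way, with any window of a gene sufficing, 0.0916% of all 27305 genes with a RefSeq window held an ERSE and 0.0696% an ERSE-II, which is 0.0769% and 0.0541% of the 35116 windows. HSPA5 had its ERSE from -66 to -48 relative to the start, HSP90B1 had 1 from -194 to -176 and 1 from -89 to -71 on the other strand, and HYOU1 had an ERSE-II from -185 to -175 and another from -79 to -69. The first element of HYOU1 overlaps an XBP1 site, TGACGTGG, which was present in 0.927% of all genes and, among the other members, only in DNAJC10. The elements of CALR (-225 to -207), CANX (-151 to -133 in 1 of its 4 windows, 3 of which hold this site) and SDF2L1 (-188 to -178) are given with flanking bases, with the same capitals.
CALR: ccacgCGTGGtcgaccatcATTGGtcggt
CANX: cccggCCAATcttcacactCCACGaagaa
SDF2L1: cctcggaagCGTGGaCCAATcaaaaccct

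DNAJB9, DNAJB11, DNAJC3 and DNAJC10 had no complete ERSE or ERSE-II in this window, which says only that these letters are not there. With 1 mismatch allowed in the fixed letters of the ERSE, 7 of the 10 genes had a match, DNAJC3 being the only one of the 4 among them, and so did 1.89% of all genes. CCAAT was present in all 10 genes and CCACG in 9, but the former is in 39.7% and the latter in 42.1% of all genes. DNAJB11 was the member without CCACG. The 4 genes that lack a complete element are the 4 J-domain genes, and they had ratios of PERK-KO to WT from 1.60 to 2.71, within the range of the other 6 (1.53 to 5.21).

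All 10 chaperone genes had a higher FPKM in PERK-KO than in WT cells, from 1.53-fold for CALR to 5.21-fold for HYOU1, and in each of them the confidence limits of both samples were apart. More than 1.5-fold higher were 10 of 10, against 10.1% of the 14594 genes that reached 1 FPKM in WT or PERK-KO cells, and 7.54% of those genes were more than 1.5-fold lower. More than 2-fold higher were 6 of the 10 (3.28% of all genes). Higher with limits apart were 10 of 10 (26.1% of all genes, while 18.7% were lower with limits apart), and both more than 1.5-fold higher and with limits apart were again 10 of 10 (7.9% of all genes). The median log2 ratio was 1.21 over the members and 0.04 over all genes. Because the genes were chosen on this contrast, nothing further is read from these counts. In a library from bulk cells, more RNA per cell cannot be told apart from more cells with a high level.

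HSPA5, on chromosome 9 (127997127 to 128003666, GRCh37, minus strand), was at 161 FPKM (158 to 164) in WT and at 679 (672 to 685) in PERK-KO cells. That is a ratio of 4.21, and the most extreme values the limits allow are 4.09 and 4.33. HYOU1 (GRP170), on chromosome 11 (118914896 to 118927925), is a large HSP70-type protein that serves HSPA5 as exchange factor. It was at 25.5 FPKM (24.1 to 26.9) in WT and 133 (128 to 138) in PERK-KO cells, with a ratio of 5.21 (4.75 to 5.72). The HSP70-type genes stood above the other 8, whose ratios reached at most 3.07 within their limits, and HYOU1 stood above HSPA5.

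HSP90B1, on chromosome 12 (104324112 to 104341708), was at 401 FPKM (384 to 419) in WT and 848 (812 to 884) in PERK-KO cells, which gave a ratio of 2.11 (1.94 to 2.30). Its level in PERK-KO cells exceeded that of HSPA5 in the same cells, although HSPA5 had the larger ratio. An exon of HSP90B1 also contains MIR3652, a short row listed at 0.0170 FPKM (0 to 15.2) in WT and 1178 (901 to 1455) in PERK-KO cells, so fragments of the shared stretch may have been counted under either name.

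CALR, on chromosome 19 (13049414 to 13055304), is the soluble lectin chaperone and was the most abundant of the 10 in both samples, with 688 FPKM (679 to 697) in WT and 1050 (1038 to 1062) in PERK-KO cells. CANX, on chromosome 5 (179125930 to 179158639), is its membrane-bound counterpart and was at 164 FPKM (158 to 170) and 256 (247 to 266). Their ratios were the lowest of the set and close to each other, 1.53 (1.489 to 1.56) for CALR and 1.56 (1.45 to 1.68) for CANX. The level of CALR over that of CANX was 4.19 (3.99 to 4.40) in WT and 4.10 (3.91 to 4.31) in PERK-KO cells, which are ranges that overlap.

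The J-domain co-chaperones covered a range of ratios. DNAJC3 (p58IPK), on chromosome 13 (96329393 to 96447243), binds unfolded proteins itself and was at 7.01 FPKM (6.50 to 7.53) in WT and 19.0 (18.1 to 19.9) in PERK-KO cells, which gave a ratio of 2.71 (2.41 to 3.06). DNAJB9 (ERdj4), on chromosome 7 (108210189 to 108215294), is a repressor of IRE1 that acts together with HSPA5, and it was at 7.84 (7.02 to 8.66) and 19.9 (18.5 to 21.3), a ratio of 2.54 (2.14 to 3.03). These are the genes with the lowest levels of the set, and their limits overlapped within each sample. DNAJB11 (ERdj3), on chromosome 3 (186288467 to 186303589), which presents nascent proteins to HSPA5, was at 54.3 (51.6 to 57.0) and 97.0 (93.2 to 101), a ratio of 1.79 (1.64 to 1.96). DNAJC10 (ERdj5), a J-domain disulfide reductase on chromosome 2 (183580768 to 183644750), was at 17.9 (16.9 to 18.9) and 28.7 (27.3 to 30.1), a ratio of 1.60 (1.44 to 1.78). The range of DNAJC10 overlapped those of both lectins, whereas the ranges of DNAJC3 and DNAJB9 lay above those of DNAJB11, DNAJC10, CALR and CANX.

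SDF2L1, on chromosome 22 (21996542 to 21998588), which joins DNAJB11 in a complex with HSPA5, was at 64.0 FPKM (59.6 to 68.4) in WT and 176 (168 to 183) in PERK-KO cells, which gave a ratio of 2.74 (2.45 to 3.07). Its paralogue SDF2, which encodes a similar ER protein, had 20.1 FPKM (18.1 to 22.1) in WT and 11.9 (10.3 to 13.5) in PERK-KO cells. SDF2L1 thus exceeded SDF2 by 3.19 times (2.70 to 3.78) in WT and by 14.8 times (12.5 to 17.8) in PERK-KO cells.

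**Figure D1:**
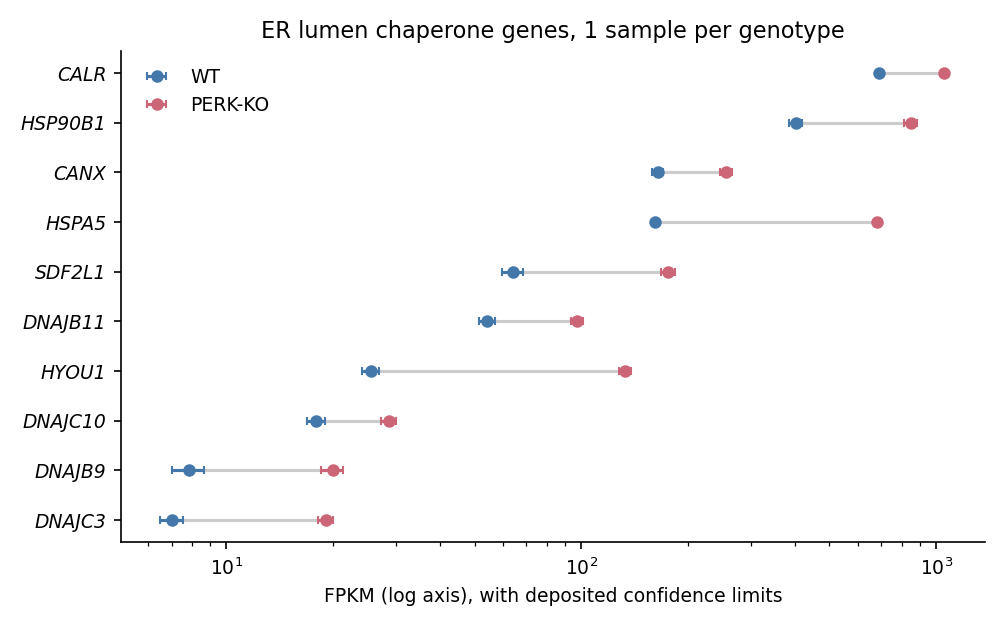
FPKM of the 10 ER lumen chaperone genes in WT (blue) and PERK-KO (red) cells on a log axis, ordered by the WT level, with the deposited confidence limits as error bars and 1 sample per genotype. Each red point lies to the right of its blue point, with the longest lines for HYOU1 (25.5 and 133 FPKM) and HSPA5 (161 and 679 FPKM).

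In WT cells the levels ran from CALR over HSP90B1, CANX, HSPA5, SDF2L1, DNAJB11, HYOU1, DNAJC10 and DNAJB9 to DNAJC3, and the limits overlapped only between CANX and HSPA5 and between DNAJB9 and DNAJC3. In PERK-KO cells HSPA5 stood above CANX and HYOU1 above DNAJB11, with limits apart, and the other neighbours kept their order. Among the 14594 genes HSPA5 was in position 667 by level in WT and 146 in PERK-KO cells, and HYOU1 in positions 3804 and 749. The precision of these values differed between genes. The confidence limits were as wide as the counting error of 366 (DNAJB9) to 23270 (CALR) fragments in WT cells, and of 813 (DNAJB9) to 44650 (HSPA5) fragments in PERK-KO cells. These numbers are not fragment counts. That of CANX was 3170 in WT and 2888 in PERK-KO cells, although its FPKM was higher in PERK-KO cells, so the limits do not follow counting alone.

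The lowest ratio that the limits allow was above 1.5 in 7 of the 10 genes (2.64% of all genes). It was below that for CALR (1.489), CANX (1.45) and DNAJC10 (1.44), so for these genes the limits do not set the ratio apart from 1.5. When PERK-KO values were scaled so that the median log2 ratio of genes at 1 FPKM or more in both samples was 0, CALR came to a log2 ratio of 0.57 and 9 of the 10 genes were past 1.5-fold (8.98% of all genes). Log2 ratios also moved with transcript length over all genes. The median of the genes nearest in length was -0.36 for SDF2L1 (825 bases), 0.11 for HSPA5 (3921 bases) and 0.20 for CANX (4915 bases). When this median was subtracted, 8 of the 10 genes were past 1.5-fold (6.21% of the 12454 genes with a length were), with HSPA5 at 1.96 and SDF2L1 at 1.81, while CANX was at 0.44 and DNAJC10 at 0.32. For DNAJC10 the annotated transcript of 20144 bases may be longer than the one the authors counted.

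**Figure D2:**
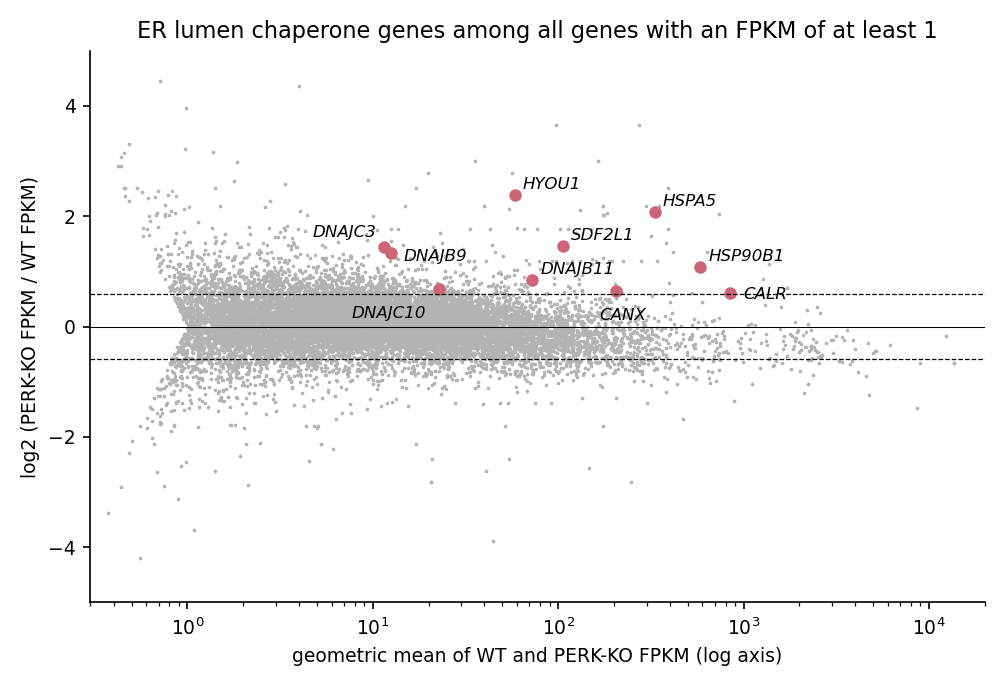
Log2 ratio of PERK-KO to WT FPKM (y axis) against the geometric mean of the levels in both samples (x axis, log scale) for 14405 genes that reached 1 FPKM in WT or PERK-KO cells (grey), with the 10 chaperone genes in red. Dashed lines mark 1.5-fold; 34 genes lie outside the axes and 155 at 0 in one sample are not drawn. HYOU1 and HSPA5 lie highest among the 10, and DNAJC10, CANX and CALR lie just above the upper line.

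Summed over the 10 genes, the FPKM was 1591 in WT cells (1545 to 1638 with all genes at their lower or upper limits) and 3306 in PERK-KO cells (3222 to 3390), a ratio of 2.08. Without HSPA5 the ratio of the sums was 1.84. The 10 genes took 0.178% of the summed FPKM of expressed genes in WT and 0.425% in PERK-KO cells, and 0.226% and 0.553% of it with small RNA genes left out. Within the set, a comparison that does not depend on the scaling between libraries, HSPA5 made up 10.1% of the sum in WT and 20.5% in PERK-KO cells. The share of CALR was 43.2% and 31.8%, that of HSP90B1 25.2% and 25.7%, and that of CANX 10.3% and 7.75%. HYOU1 made up 1.60% and 4.02%, SDF2L1 4.02% and 5.31%, and DNAJB11 3.41% and 2.94%, while DNAJB9, DNAJC3 and DNAJC10 each stayed at or below 1.12%. Of the difference between the sums, HSPA5 accounted for 30.2%, HSP90B1 for 26.1% and CALR for 21.1%.

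HSPA5 thus changed place relative to its partners. Its level over that of HSP90B1 was 0.402 (0.378 to 0.428) in WT and 0.801 (0.761 to 0.844) in PERK-KO cells, and over that of CALR it was 0.235 (0.227 to 0.242) and 0.647 (0.634 to 0.660). The 4 J-domain genes together had 0.540 times the level of HSPA5 (0.499 to 0.581) in WT and 0.243 times (0.229 to 0.256) in PERK-KO cells. HSPA5 exceeded HYOU1 by 6.32 times (5.88 to 6.82) in WT and by 5.11 times (4.88 to 5.36) in PERK-KO cells. In all of these ratios the ranges of the samples were apart.

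**Figure D3:**
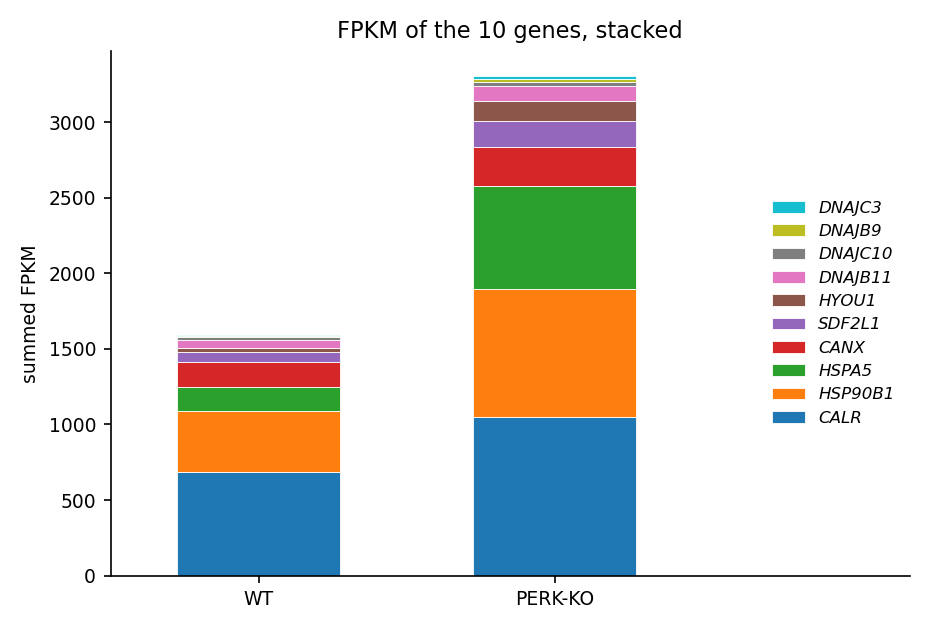
Stacked FPKM of the 10 ER lumen chaperone genes in WT and PERK-KO cells, 1 sample each, with the order of colours as in the key. The bars reach 1591 and 3306 FPKM, and the green part, HSPA5, goes from 10.1% of the WT bar to 20.5% of the PERK-KO bar.

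In the same protein families outside the ER, the list medians lay below that of the 10 genes. As members and lists were chosen with earlier results of these data known, this is a description and not a test. Single genes, HSPA4L (ratio 1.77) and DNAJB5 (ratio 2.44), nevertheless lay within the range of the 10. Of 14 HSP70 and HSP90 genes of the cytosol, nucleus or mitochondria, 12 reached 1 FPKM, of which 1 was more than 1.5-fold higher (HSPA4L, 7.28 and 12.9 FPKM) and none was lower by that much, with a median log2 ratio of -0.00 (0.20 with the sums of both samples set equal). HSPA8, the constitutive HSP70 of the cytosol, was at 332 FPKM (318 to 346) in WT and 355 (340 to 370) in PERK-KO cells. HSPA9, that of mitochondria, was at 105 (103 to 108) and 109 (106 to 112). HSP90AA1 was at 591 (566 to 616) and 412 (394 to 430), and HSP90AB1 at 492 (476 to 507) and 449 (437 to 461). HSPA5 over HSPA8 was therefore 0.485 (0.457 to 0.516) in WT and 1.91 (1.82 to 2.01) in PERK-KO cells, and HSP90B1 over HSP90AB1 was 0.817 (0.758 to 0.879) and 1.89 (1.76 to 2.03). Of 15 J-domain genes of other compartments, 14 reached 1 FPKM, and 1 was more than 1.5-fold higher (DNAJB5, 2.43 and 5.93 FPKM), none lower, with a median of -0.09 (0.12 with the sums set equal). Of all genes, 10.1% were more than 1.5-fold higher and 7.54% more than 1.5-fold lower. HSPA1A and HSPA1B are nearly identical, so the split of fragments between them is uncertain.

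Within the ER, 4 lists of other folding components had median log2 ratios from -0.03 to 0.31, against 1.21 for the 10 genes. These lists were written with earlier results of these data known and do not cover all ER folding genes. They hold neither PDIA4 nor HERPUD1, ER genes described below with log2 ratios of 2.03 and 2.14. The rise is therefore not particular to the 10 genes. Among 7 further J-domain genes of the ER, 0 were past 1.5-fold in either direction and the median log2 ratio was 0.20. The nearest was SEC63, which recruits HSPA5 to the translocon, with 23.7 FPKM (22.8 to 24.5) in WT and 35.0 (33.9 to 36.1) in PERK-KO cells. Of 10 other partners of HSPA5 and HSP90B1, 3 were more than 1.5-fold higher (10.1% of all genes) and 2 were more than 1.5-fold lower (7.54% of all genes). Their median was -0.01 (0.19 with the sums set equal). MANF, which stabilises HSPA5-client complexes, was at 99.6 FPKM (94.4 to 105) and 234 (225 to 242), FICD, which AMPylates HSPA5, at 2.02 (1.48 to 2.55) and 4.76 (3.90 to 5.63), and HSPA13, a microsomal HSP70-like protein, at 11.9 (11.1 to 12.7) and 24.2 (23.0 to 25.4). The lower ones were SDF2 and CDNF, and the limits of CDNF overlapped. SIL1, the other exchange factor of HSPA5, was at 17.4 FPKM (15.8 to 19.1) and 17.2 (15.5 to 18.9), next to the ratio of 5.21 for HYOU1.

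Of 8 genes of the glycoprotein folding cycle around CALR and CANX, 7 reached 1 FPKM and 0 of them were past 1.5-fold in either direction, with a median log2 ratio of 0.31. UGGT1, the glucosyltransferase that returns unfolded glycoproteins to the lectins, was at 16.9 FPKM (16.1 to 17.8) in WT and 21.2 (20.2 to 22.1) in PERK-KO cells, and PDIA3, the oxidoreductase partner of both lectins, at 128 (122 to 134) and 175 (166 to 183). With the length median subtracted, the median of this list was 0.01. Of 7 peptidyl-prolyl isomerases of the ER, 1 was more than 1.5-fold higher (FKBP14, 6.05 and 11.5 FPKM) and none lower, with a median of -0.03 (0.17 with the sums set equal). The shares of all genes were 10.1% higher and 7.54% lower by more than 1.5-fold. PPIB, the abundant cyclophilin of the ER, was at 378 (359 to 396) and 446 (424 to 467).

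Among 8 sensors and transcription factors of the unfolded protein response, 3 were more than 1.5-fold higher (10.1% of all genes) and none was lower by that much (7.54% of all genes), with a median log2 ratio of 0.44. These were XBP1, at 97.6 FPKM (93.0 to 102) in WT and 187 (179 to 194) in PERK-KO cells, ERN1, which encodes IRE1, at 0.951 (0.726 to 1.18) and 2.07 (1.72 to 2.42), and CREB3L2, at 7.31 (6.64 to 7.98) and 15.2 (14.3 to 16.2). ATF6 was at 7.92 (7.45 to 8.38) and 11.1 (10.5 to 11.7). The list includes the targeted gene EIF2AK3, whose log2 ratio of -0.53 enters the list median. EIF2AK3 was lower with limits apart (18.7% of all genes), and the other 7 were higher with limits apart (26.1% of all genes). FPKM per gene does not tell spliced from unspliced XBP1. Of 12 genes of the PERK-ATF4 branch, 6 were more than 1.5-fold higher (10.1% of all genes) and 0 were lower, with a median of 0.59. ASNS, asparagine synthetase, was among these 6, at 32.5 FPKM (30.5 to 34.6) and 78.7 (74.8 to 82.7). ATF4 was at 342 (326 to 358) and 506 (483 to 528), with limits apart. Its ratio of 1.48 was not past 1.5-fold, but its range (1.35 to 1.62) spans 1.5. DDIT3, which encodes CHOP, was at 58.2 (53.7 to 62.8) and 66.2 (61.1 to 71.4), with limits that overlap. All 12 genes of this branch were higher in PERK-KO cells, 9 of them with limits apart (26.1% of all genes). The medians of both lists lay below that of the 10 chaperone genes, and these differences were not tested.

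By likeness to HSPA5, measured as the absolute difference in log2 ratio over the 2 samples, the 5 nearest of the other genes that reached 10 FPKM in either sample, small RNA genes left out, were PDIA4, HERPUD1, SLIT2, MSTO2P and STC2. PDIA4, a protein disulfide isomerase, was at 85.9 FPKM (83.4 to 88.4) in WT and 351 (345 to 356) in PERK-KO cells, with a log2 ratio of 2.03 against 2.07 for HSPA5. HERPUD1, a component of ER-associated degradation, was at 25.9 (23.9 to 27.8) and 114 (108 to 120), with a log2 ratio of 2.14. The log2 ratios of SLIT2, MSTO2P and STC2 were 1.79, 1.75 and 1.71. A likeness over 2 samples is a single difference and says nothing of shared control.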

How the data were processed

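RNA of WT and PERK-KO HEK293 cells, 1 sample per genotype, was analysed from the gene tables deposited by the authors. Per the labels and the methods, poly(A) RNA was made into libraries that do not mark strand, reads were mapped to hg19 with TopHat2 2.0.13, and the authors computed FPKM with confidence limits using Cufflinks 2.2.1. The tables hold no fragment counts. Where the limits matched whole fragment numbers in both samples (361 genes, within 0.005), a single fragment added 1.14 times more FPKM to the PERK-KO than to the WT table, so that the depth of PERK-KO was 87.6% of that of WT. The members and lists were chosen with earlier results of these data known, and the text names all members, EIF2AK3, genes of the 8 lists, and the 5 genes nearest to HSPA5.

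Ratios were taken without a pseudocount over genes that reached 1 FPKM in WT or PERK-KO cells, and the ranges behind ratios divide lower by upper limits and the reverse. The fold limit of 1.5 rounds that of the study. No test could be made, and a count model was not used. Exons of 6 of the 10 genes overlap those of other annotated genes, whose fragments cannot be told apart without strand. Transcript lengths came from GENCODE 44 (GRCh37), for 85.3% of tested genes, and promoters from RefSeq. A motif was searched on both strands. Python 3.11.15, numpy 2.4.6, pandas 2.3.3 and matplotlib 3.10.9 were used, and calculations were tested on simulated data with 200 genes changed 3-fold. Protein sequences were not used here.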

Additional observations from a re-analysis of the deposited data

How the results depend on the processing

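No paired analysis was possible because each genotype has 1 sample, and for the same reason no replicate could be left out. Each of the 10 genes was higher in PERK-KO cells under every alternative run. The number of genes past 1.5-fold, 10, was 9 with the median log2 ratio set to 0 (8.98% of all genes). It was also 9 with the 75th percentile of both samples set equal (9.31%). The number was 8 with the median over transcript length subtracted (6.21%) and 6 at a 2-fold threshold (3.28%). It was 7 when the lowest ratio that the limits allow had to pass (2.64%, chosen after seeing the data). It stayed at 10 with pseudocounts of 0.1 (9.72%) and 1 (6.47%), with no filter (13.7%) or limits of 5 (8.42%) and 10 FPKM (7.51%), with rows of a name summed (10.2%), with the sums of both samples set equal (20.0%) and at the threshold of the study (10.5%). With the sums of both samples set equal, the median log2 ratio of the 10 genes was 1.41 in place of 1.21, but the median of all genes also went from 0.0402 to 0.244, and 84.0% in place of 57.4% of the genes past 1.5-fold were higher. That scaling moved the ratio of summed FPKM from 2.08 to 2.39, and leaving out HSPA5 moved it to 1.84. It also turned the median of the HSP70 and HSP90 genes of other compartments from -0.00 to 0.20, that of the J-domain genes of other compartments from -0.09 to 0.12, that of the other partners from -0.01 to 0.19 and that of the isomerases from -0.03 to 0.17, so the signs of those medians depend on the scaling. With the length median subtracted, the medians of the isomerases and the other partners were 0.20 and 0.03, also with a changed sign. Those of the sensors and transcription factors and of the PERK-ATF4 branch were 0.29 and 0.69. The further ER J-domain genes had 0.06, and the glycoprotein folding cycle 0.01. Outside the ER, the HSP70 and HSP90 genes had -0.06 and the J-domain genes -0.07. The variation between cultures is unknown.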

Other observations

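An ERSE or ERSE-II was found in 6 of the 10 chaperone genes and in 2 of 73 related genes with a promoter window (2.74%), against 0.161% of all genes. In the lists of related genes, FICD, among the partners of HSPA5 and HSP90B1, and XBP1, among the sensors and transcription factors, held one. Both were past 1.5-fold on the higher side (10.1% of all genes). Whether genes with an element differ from those without was not tested, and ratios of such genes outside the lists were not examined. MANF and HSPA13 were more than 1.5-fold higher without a complete element in this window. These are matches of letters in windows of fixed length and were counted after the ratios had been seen. Since the elements are known from ER chaperone genes, their share among the 10 genes is a description.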
